A study of Homo sapiens with 6 samples.

Results

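MAP1LC3A and 9 genes that work with it in autophagy were examined across 6 RNA-seq libraries of the cell line OCI-AML3, which derives from human acute myeloid leukaemia. The group is a named list: the LC3 genes MAP1LC3A, MAP1LC3B and MAP1LC3B2, the GABARAP genes GABARAP, GABARAPL1 and GABARAPL2, the cargo receptors SQSTM1 and NBR1, and the conjugation enzymes ATG3 and ATG7. All 10 symbols matched 1 gene ID each among the 60660 IDs of the files, and all 10 passed the filter on low values (3 or more libraries at 1 normalised read or above), which 28015 genes passed in all. The family was chosen by the MAP1LC3A read values in this same contrast, so the group differences of the 10 genes are given as a description and without a test.

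SLC2A3 overexpression libraries (n = 3) were compared with empty vector libraries (n = 3, titled pLenti). SLC2A3 encodes the glucose transporter GLUT3. The cells of both groups were grown with 250 µM vitamin C, so an effect of the vitamin itself cannot be told apart. The labels do not say whether either line is 1 clone or whether replicates are separate cultures, and p-values therefore measure only the spread between these libraries, which may be technical. Depth was 31054462 to 35770556 recovered reads per library. SLC2A3 stood at 4056, 3716 and 4054 normalised reads in SLC2A3 libraries, against 1194, 1183 and 1257 in empty vector libraries, in the order of the labels. Transcripts from the vector and from the cells' own SLC2A3 gene are not separated in these values. Of 8 myeloid markers, 7 averaged at least 10 normalised reads, led by the myeloid factor SPI1, and the stem cell factor receptor KIT was near 0. Their summed level was 40132 to 44423 in SLC2A3 libraries and 40491 to 42216 in empty vector libraries, and FLT3, a receptor kinase among them, fell (log2 difference -0.21, limma adjusted p = 0.0277). The part of this difference in the other results was not tested. The T-cell markers CD3E and CD3D, the B-cell marker MS4A1 and the haemoglobin genes HBB and HBA1 had 0 reads in all 6 libraries.

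Autophagy encloses cytoplasm in a double membrane and delivers it to the lysosome. ATG8 proteins, which in humans form the LC3 and GABARAP subfamilies, are cut by ATG4 proteases behind a C-terminal glycine and then joined through it to the lipid phosphatidylethanolamine by ATG7 (E1-like), ATG3 (E2-like) and an ATG12-ATG5-ATG16L1 complex. On the membrane they recruit cargo receptors such as SQSTM1 (p62) and NBR1, which are themselves degraded. Transcript levels do not measure lipidation or autophagic flux.

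The ends of the coding sequences are shown because the glycine codon is what the 6 ATG8 members share and because these ends bear on which genes can share reads. The glycine codon is in capitals, the stop codon is left out, and the sequences are those of GENCODE 29 transcripts on GRCh38.
MAP1LC3A: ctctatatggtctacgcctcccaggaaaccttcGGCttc
MAP1LC3B: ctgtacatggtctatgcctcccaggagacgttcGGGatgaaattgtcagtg
MAP1LC3B2: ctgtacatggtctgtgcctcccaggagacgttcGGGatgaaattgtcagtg
GABARAP: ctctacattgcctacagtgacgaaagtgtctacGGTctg
GABARAPL1: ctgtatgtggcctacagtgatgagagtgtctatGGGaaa
GABARAPL2: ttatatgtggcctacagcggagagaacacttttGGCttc
These lie at chr20:34559857-34559895 (plus strand) for MAP1LC3A, chr16:87403044-87403094 (plus) for MAP1LC3B, chr12:116576267-116576317 (plus) for MAP1LC3B2, chr17:7240857-7240895 (minus) for GABARAP, chr12:10221811-10221849 (plus) for GABARAPL1 and chr16:75577328-75577366 (plus) for GABARAPL2. The glycine is codon 120 in the LC3 genes and codon 116 in the GABARAP genes. A single codon follows it in MAP1LC3A and the GABARAP genes, and 5 follow it in MAP1LC3B and MAP1LC3B2. Over aligned coding bases MAP1LC3A was 74.6% identical to MAP1LC3B and 55.6% identical to GABARAP. MAP1LC3B and MAP1LC3B2 differed at 2 of 375 coding bases, C30G and A338G, counted from the first coding base with the MAP1LC3B base first. Of 50-base windows of annotated MAP1LC3B2 transcripts, 15.1% also occur in MAP1LC3B transcripts, so reads between these genes could be divided either way. No 50-base window of MAP1LC3A was shared with another ATG8 gene listed here.

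MAP1LC3A (ENSG00000101460.13, chromosome 20, 34546854 to 34560345, plus strand), which encodes LC3A, had the largest difference relative to its error among the members. It stood at 9085, 9058 and 8616 normalised reads in SLC2A3 libraries, against 6370.3, 6872 and 6634 in empty vector libraries. All SLC2A3 libraries were above all empty vector libraries, and the gap between the groups was wider than the range within either. The means were 8919.7 ± 264 in SLC2A3 libraries and 6625 ± 251 in empty vector libraries (SD, n = 3 each), a ratio of 1.35 and a log2 difference of 0.43 (SE 0.043). The coefficient of variation within a group was 2.96% in SLC2A3 libraries and 3.79% in empty vector libraries, and counting error alone gives 1.13% per library at this depth. GENCODE 29 lists 3 coding transcripts of the gene, with starts at 34546854, 34558108 and 34558718, and gene-level counts do not separate them. In bulk libraries, a change in the mix of cells and a change in RNA per cell cannot be told apart.

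**Figure D1:**
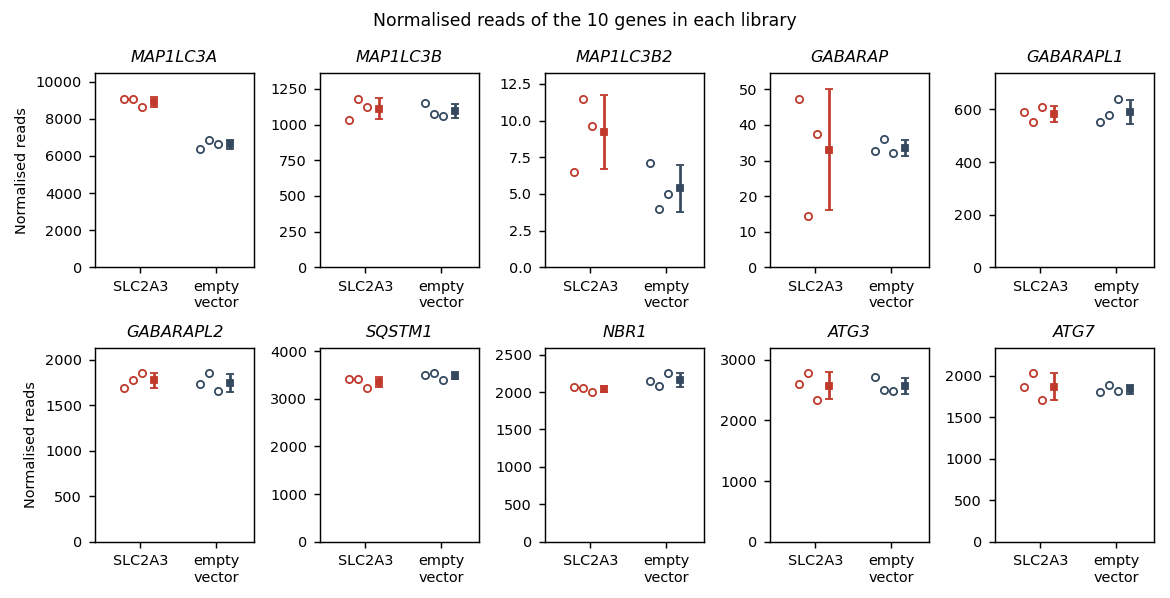
Normalised reads (vertical axes, each starting at 0) of the 10 genes in SLC2A3 overexpression (red) and empty vector (dark) libraries. Open circles are libraries, in label order, and squares with bars are means ± SD (n = 3). MAP1LC3A lies at 8616 to 9085 in SLC2A3 libraries and at 6370.3 to 6872 in empty vector libraries, while the groups overlap for the other genes except NBR1.

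The other LC3 genes showed no such gap. MAP1LC3B, whose protein is the usual marker of autophagosomes, stood at 1034, 1182 and 1121 normalised reads in SLC2A3 libraries, against 1153, 1077 and 1057 in empty vector libraries. The groups overlapped, with a log2 difference of 0.02 (SE 0.070). MAP1LC3B2 was close to the detection limit, with 7, 12 and 9 reads in SLC2A3 libraries, against 7, 4 and 5 in empty vector libraries. Its log2 difference of 0.68 (SE 0.59) came with overlapping groups, and counting error alone is 36.9% per library. MAP1LC3C, the remaining human LC3 gene and not a member of the list, had 16 to 26 reads in SLC2A3 libraries and 18 to 28 in empty vector libraries, and the processed pseudogene GABARAPL3 was at 0 in all 6.

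In the GABARAP subfamily, GABARAPL2 was the most abundant gene. It stood at 1688, 1776 and 1858 normalised reads in SLC2A3 libraries, against 1735, 1852 and 1655 in empty vector libraries. The groups overlapped, with a log2 difference of 0.02 (SE 0.062). GABARAPL1 stood at 589.7, 551 and 609.8 in SLC2A3 libraries, against 551, 577 and 641 in empty vector libraries, with a log2 difference of -0.01 (SE 0.087). Neither gene separated the groups.

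GABARAP had few reads, at 47.4, 14.4 and 37.4 normalised reads in SLC2A3 libraries, against 32.6, 36.0 and 32.0 in empty vector libraries. SLC2A3 overexpression replicate 2 was the lowest library, with 15 reads against 32 to 51 in the others. GENCODE 29 places the gene AC120057.2 on the same strand (minus, chromosome 17, 7240427 to 7244635), and it covers 30.5% of the exonic and 73.1% of the coding bases of GABARAP. AC120057.2 was listed with 0 reads over the 6 libraries. The sources used here do not give how reads in shared exons were counted, and the part of this overlap in the low GABARAP value was not tested, so the GABARAP level is uncertain.

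Both cargo receptors had slightly lower means in SLC2A3 libraries. SQSTM1 stood at 3405, 3419 and 3234 normalised reads in SLC2A3 libraries, against 3503, 3543 and 3403 in empty vector libraries, and the groups overlapped narrowly (log2 difference -0.06, SE 0.049). NBR1 stood at 2069, 2050.2 and 1998 in SLC2A3 libraries, against 2145, 2084 and 2257 in empty vector libraries. For NBR1 every SLC2A3 library was below every empty vector library, by a narrow margin (log2 difference -0.08, SE 0.056). In all, 2 of the 10 members did not overlap between the groups, NBR1 and MAP1LC3A, the gene whose values chose the family. Of all tested genes 16.3% did not overlap (8.04% higher and 8.27% lower in SLC2A3 libraries). Among genes with a mean of at least 100 normalised reads the share was 23.7%, and nothing is read from the count.

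Of the conjugation enzymes, ATG7 stood at 1862, 2032 and 1708 normalised reads in SLC2A3 libraries, against 1801, 1891 and 1808 in empty vector libraries. ATG3 stood at 2593, 2783 and 2341 in SLC2A3 libraries, against 2709, 2505 and 2479 in empty vector libraries. For both enzymes the SLC2A3 libraries lay on both sides of the empty vector range, and the log2 differences were 0.02 (SE 0.063) for ATG7 and 0.00 (SE 0.061) for ATG3. Their coefficients of variation were larger in SLC2A3 libraries, 8.69% for ATG7 and 8.62% for ATG3, than in empty vector libraries, 2.74% and 4.92% in the same order, with replicate 3 the lowest library for each enzyme. In the fit over all genes, limma called 1 of the 10 members, MAP1LC3A, and 1.49% of all tested genes. As this contrast chose the family, nothing is read from that count.

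Levels of different genes were compared as normalised reads per kb of exon, using the union of exons in GENCODE 29. MAP1LC3A was the highest of the 10, with 4889.6 to 5156 reads per kb in SLC2A3 libraries and 3615 to 3900 in empty vector libraries. Next over all 6 libraries came GABARAPL2 at a mean of 580.3 reads per kb, SQSTM1 at 447, ATG3 at 420.3, NBR1 at 249.9, ATG7 at 209, MAP1LC3B at 208, GABARAPL1 at 144, GABARAP at 14.7 and MAP1LC3B2 at 4.13. Library ranges overlapped between SQSTM1 and ATG3, between ATG7 and MAP1LC3B and between GABARAP and MAP1LC3B2, and the other neighbours in this order did not overlap. The place of GABARAP in this order is uncertain, as its level is. Reads of the processed pseudogenes MAP1LC3BP1, SQSTM1P1 and ATG3P1 summed to 2, 3 and 0 over the 6 libraries.

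**Figure D2:**
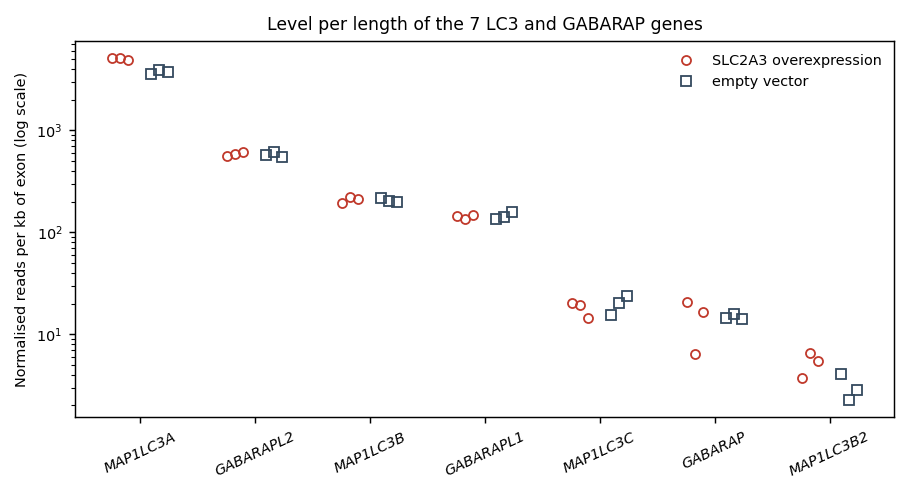
Normalised reads per kb of exon (log scale) of 7 LC3 and GABARAP genes, 1 point per library, with SLC2A3 overexpression as red circles left of empty vector as dark squares. MAP1LC3A, at 3615 to 5156 reads per kb over both groups, lies above GABARAPL2, at 545 to 612, and above the others.

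Within the ATG8 family of 7 genes, MAP1LC3C included, MAP1LC3A made up 84.6%, 84.1% and 82.9% of the summed reads per kb in SLC2A3 libraries, against 79.1%, 79.7% and 80.0% in empty vector libraries. The family sum was 6037 ± 120.2 reads per kb in SLC2A3 libraries and 4724 ± 161 in empty vector libraries (SD, n = 3 each). Without MAP1LC3A the sum of the other 6 genes was 975 ± 34.4 in SLC2A3 libraries and 964 ± 26.1 in empty vector libraries, and the groups overlapped. The share of GABARAPL2 was 9.69% ± 0.637 in SLC2A3 libraries and 12.2% ± 0.520 in empty vector libraries. The ratio of MAP1LC3A to MAP1LC3B, per length, was 26.5, 23.1 and 23.2 in SLC2A3 libraries, against 16.7, 19.2 and 18.9 in empty vector libraries. With the longest annotated transcript as length it averaged 15.8 ± 1.26 in SLC2A3 libraries and 11.9 ± 0.914 in empty vector libraries (SD, n = 3 each). The size of this ratio therefore depends on the length used. A change of length scales the ratio by the same factor in every library, so it cannot alter the order of the libraries. These shares depend on the annotated lengths and include the uncertain GABARAP level.

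The genes around MAP1LC3A on chromosome 20 were compared in the same fit. Of 8 other tested genes within 100 kb, 0 passed limma, 0 had an unadjusted limma p under 0.05, and edgeR with TMM factors called 0 of the 3 it tested. Over all tested genes these shares were 1.49%, 11.8% and 3.29% in that order. Of the 8, only PIGU, DYNLRB1 and ITCH averaged at least 100 normalised reads. The others averaged 1.62 to 7.05 (SE of the log2 difference 0.59 to 0.87), too few reads for their lack of a call to be read. PIGU, on the opposite strand with its nearer edge 0.2 kb past the end of MAP1LC3A, stood at 1794, 1551 and 1543 normalised reads in SLC2A3 libraries, against 1567, 1646 and 1481 in empty vector libraries. DYNLRB1, a dynein light chain gene 5.9 kb upstream, had a log2 difference of 0.12 (SE 0.085), and the ubiquitin ligase gene ITCH, 35.5 kb upstream, one of -0.13 (SE 0.076). A wider window of 500 kb, chosen after the values were seen, held 26 tested genes. Limma called 2 of these (7.69%), 5 had an unadjusted limma p under 0.05 (19.2%), and edgeR with TMM factors called 3 of 15. Of the 13 genes in this window with a mean of at least 100 normalised reads, limma called 2 (15.4%). Of these 13, 5 had an unadjusted limma p under 0.05 (38.5%), and edgeR called 3 (23.1%). Among all genes with such a mean, these shares were 3.45%, 19.9% and 4.96% in that order. The window shares were higher, but they rest on few genes, and the difference was not tested. The genes called by limma were TP53INP2, 143.9 kb downstream, and EIF2S2, a subunit of translation initiation factor eIF2, 434.5 kb upstream (log2 difference 0.16, SE 0.040, limma adjusted p = 0.0374).

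**Figure D3:**
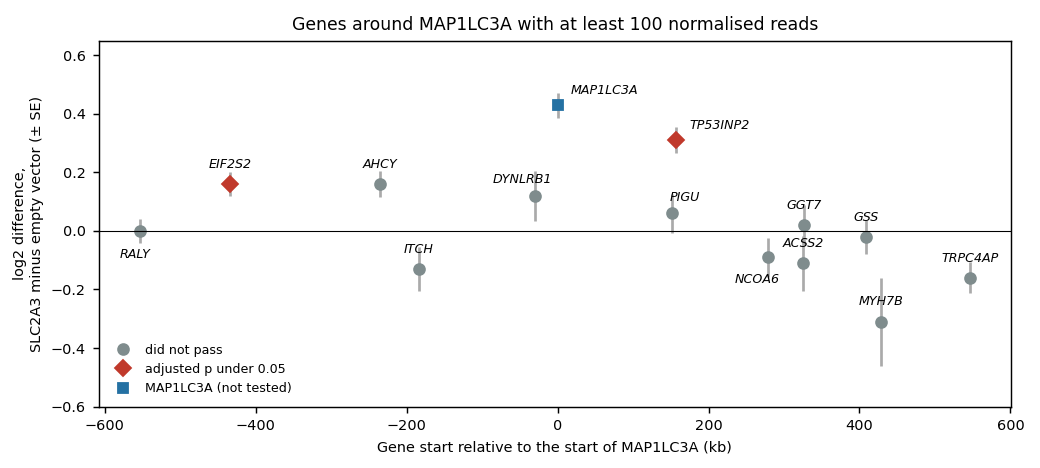
The log2 difference (SLC2A3 overexpression minus empty vector, ± SE, vertical axis) of genes with a mean of at least 100 normalised reads whose bodies come within 500 kb of MAP1LC3A, by gene start relative to that of MAP1LC3A (kb, horizontal axis). TP53INP2 and EIF2S2 (red diamonds) passed the threshold, MAP1LC3A (blue square) is shown without a test, and the genes in grey did not pass.

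The rest of the pathway was read from 8 lists with 103 genes, all of them tested. Limma called 4 of these, 2 higher and 2 lower (3.88%), where it called 0.692% of all tested genes as higher, 0.800% as lower, and 3.45% in either direction among the 11730 genes with a mean of at least 100 normalised reads. edgeR with TMM factors called 7 of the 103 (6.80%), where it called 3.29% of all genes it tested and 4.96% of those with a mean of at least 100. An unadjusted limma p under 0.05 was found for 22 of the 103 (21.4%), against 11.8% of all tested genes and 19.9% of those with a mean of at least 100. By these counts the limma calls and unadjusted p-values were near the shares of other well expressed genes, and the edgeR share was somewhat above, with no test of the difference. The regulator list held 6 of 12 genes with an unadjusted p under 0.05 and 3 of the 7 edgeR calls. The median log2 difference of the 103 genes was -0.03, and that of all tested genes 0.0014. The groups did not overlap for 31 of the 103 (30.1%), 8 higher and 23 lower. Of all tested genes 16.3% did not overlap, 8.04% higher and 8.27% lower. Of well expressed genes 23.7% did not overlap, 10.7% higher and 13.0% lower.

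TP53INP2, which encodes an LC3-binding protein that moves between nucleus and autophagosome, rose. It stood at 6169.5, 6411 and 6475 normalised reads in SLC2A3 libraries, against 5298, 4942 and 5091 in empty vector libraries (log2 difference 0.31, SE 0.045, limma adjusted p = 0.000156). Every SLC2A3 library was above every empty vector library, and the call held under all 13 alternatives. Its relative TP53INP1 did not pass (382 ± 27.5 in SLC2A3 libraries and 425 ± 60.8 in empty vector libraries, SD, n = 3 each).

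BNIP3, a receptor that brings mitochondria to LC3, also rose, at 977, 1081 and 983 normalised reads in SLC2A3 libraries against 692, 592 and 628 in empty vector libraries (log2 difference 0.67, SE 0.079, called under all 13 alternatives). The closely related receptor gene BNIP3L did not pass, at 2345 ± 211 in SLC2A3 libraries and 2375 ± 121 in empty vector libraries (SD, n = 3 each). With BNIP3L included, 18 of 19 receptor genes did not pass. Among them FKBP8, NCOA4 (the ferritin receptor gene), PHB2 and SEC62 had log2 differences of 0.07, -0.10, 0.01 and 0.14 in that order. The receptor list median was -0.06.

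ATG2A, a lipid transfer protein that feeds the growing membrane, fell. It stood at 3139.5, 2800.1 and 2832 normalised reads in SLC2A3 libraries, against 3318, 3430.4 and 3575 in empty vector libraries (log2 difference -0.24, SE 0.054, limma adjusted p = 0.0177). The call was lost without SLC2A3 overexpression replicate 2 (adjusted p = 0.0924), SLC2A3 overexpression replicate 3 (0.163) or empty vector replicate 3 (0.134). The other 9 genes of its list did not pass, with WIPI2 at a log2 difference of -0.09, ATG2B at -0.20, VMP1 at -0.01 and WDR45B at 0.03.

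TSC2, a brake on the autophagy-repressing kinase complex mTORC1, fell, at 3465, 3527 and 3387 normalised reads in SLC2A3 libraries against 4000.0, 3809 and 4279 in empty vector libraries (log2 difference -0.22, SE 0.051, limma adjusted p = 0.0204). Its call was lost without SLC2A3 overexpression replicate 1 (adjusted p = 0.0506) or 3 (0.160), and without empty vector replicate 1 (0.0576) or 3 (0.217). TSC1, in the same list, went the other way and did not pass (log2 difference 0.12, SE 0.058, limma adjusted p = 0.428). For TSC1 every SLC2A3 library was above every empty vector library. The kinase gene MTOR stood at 3347, 2848 and 3163 in SLC2A3 libraries, against 3623, 3305 and 3687 in empty vector libraries, and did not pass limma (adjusted p = 0.129). It was called lower in 3 of 13 alternatives: the minimum of 50 in at least 3 libraries, DESeq2, and the fit without empty vector replicate 2. ATF4, a stress-response transcription factor, was at 10974 ± 358 in SLC2A3 libraries and 9909 ± 195 in empty vector libraries (SD, n = 3 each), did not pass limma (adjusted p = 0.0668), and passed edgeR with TMM factors (adjusted p = 0.0373).

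Among the initiation genes, 0 of 5 ULK complex genes and 0 of 8 PI3K complex genes passed limma or edgeR, with 1 unadjusted limma p under 0.05 in each list (12.5% of the PI3K genes, against 19.9% of well expressed genes). The kinase gene ULK1 stood at 2246, 2082 and 2227 normalised reads in SLC2A3 libraries, against 2411, 2543 and 2399.8 in empty vector libraries, a log2 difference of -0.17 (SE 0.055). Its groups did not overlap, and of the 13 alternatives only DESeq2 called it, as lower. BECN1, the scaffold of the PI3K complex, had a log2 difference of -0.01 (SE 0.058).

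In the list of other conjugation genes, 0 of 9 passed limma or edgeR, and 0 had an unadjusted limma p under 0.05. ATG4B, the main LC3-cutting protease, was at 2771 ± 126 in SLC2A3 libraries and 2651 ± 24.4 in empty vector libraries (SD, n = 3 each). ATG12 and ATG16L2 had log2 differences of 0.11 and -0.08.

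Of 25 lysosome and TFEB genes, 0 passed limma and 6 had an unadjusted limma p under 0.05 (24.0%, against 11.8% of all tested and 19.9% of well expressed genes). CTSD, a lysosomal aspartic protease, had the smallest adjusted p of the list by limma (0.0667) and passed edgeR with TMM factors (0.0364), at 12793, 13000.4 and 12162 normalised reads in SLC2A3 libraries against 11048, 11784 and 11427 in empty vector libraries. TFEB, a transcription factor of lysosome genes, was at 947 in SLC2A3 libraries and 901 in empty vector libraries on average, and CTSB and PSAP had log2 differences of 0.00 and -0.04. The 15 fusion genes gave 0 limma calls and 2 unadjusted p under 0.05 (13.3%). edgeR called 1 of them, VPS39, with TMM factors (adjusted p = 0.0495) and not with RLE factors (adjusted p = 0.0546). RAB7A and VAMP8, which act in fusion with the lysosome, had log2 differences of -0.06 and -0.01.

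**Figure D4:**
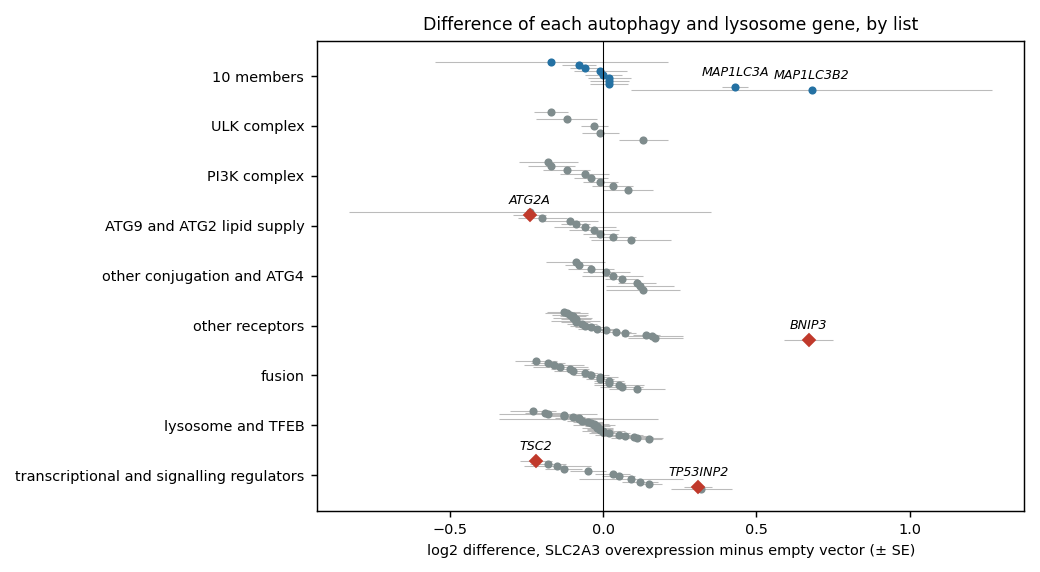
The log2 difference (SLC2A3 overexpression minus empty vector, ± SE) of the 10 members (blue, no test) and of 103 other autophagy and lysosome genes by list. Red diamonds passed limma at an adjusted p under 0.05: TP53INP2 (0.31) and BNIP3 (0.67) to the right of 0, ATG2A (-0.24) and TSC2 (-0.22) to the left. The other genes did not pass.

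Over the 6 libraries, the 5 genes most like MAP1LC3A, among 11729 with a mean of at least 100 normalised reads, were IER5, RNF145, ATP5ME, C12orf76 and CKB. Pearson's r of log2(value + 1) was 0.9932 to 0.9973. As both groups are included, r mostly reflects the group difference, and all 5 had every SLC2A3 library above every empty vector library. Within a library, all genes share the same depth and scaling factor. IER5 stood at 1608, 1606 and 1566 in SLC2A3 libraries, against 1132, 1244 and 1204 in empty vector libraries. Among the other members with such a mean, r with MAP1LC3A was 0.07 for MAP1LC3B, -0.09 for GABARAPL1 and 0.17 for GABARAPL2. It was -0.57 for SQSTM1, -0.74 for NBR1, 0.04 for ATG3 and 0.28 for ATG7.

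RefSeq promoters on GRCh38.p14, from 250 bases before to 50 after the start, were at hand for 9 members, MAP1LC3A not among them. The E-box CACGTG, which reads the same on both strands and forms the core of the motif bound by TFEB, occurred in 1 of their 12 promoters (8.33%), that of ATG3, against 7.26% of all 35116 promoters. A match is a description of the letters only.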

How the data were processed

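Each file holds a deposited signal per gene. The values themselves show that the authors divided reads by 1 factor per library, since 100% of them were whole multiples of 1 step per library within 0.001 reads. Per the submitters' processing notes, BWA, TopHat2 and hg38 were used, without roles or versions. The annotation and the counting of strand are not given in the sources used here. Symbols matched 60597 of 60660 IDs. Coordinates and lengths are from GENCODE 29 (GRCh38) and may differ from the authors' annotation.

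log2(value + 1) was fitted with limma 3.58.1 (trend, R 4.3.3) on group alone. Genes entered when 3 or more libraries reached 1, and p-values were adjusted by Benjamini-Hochberg over 28015 genes at 0.05. Fold changes on this scale understate those of low genes. Alternatives used edgeR 4.0.16 and DESeq2 1.42.0 on recovered reads, other filters and pseudocounts, a replicate block, and fits that each omit 1 library. edgeR with TMM factors called 613 of 18630 genes. The scripts were tested on simulated data. No replicate pair agreed within sampling noise (chi-square per gene 3.50 to 6.78). Named were all members, called list genes with up to 4 of the highest per list, genes within 100 kb and the 5 most similar genes. BNIP3L, TP53INP1, TSC1, VPS39, TFEB, EIF2S2 and FLT3 were named after their values were seen. Members and lists were chosen with earlier results of these data known.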

Additional observations from a re-analysis of the deposited data

How the results depend on the processing

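The log2 difference of MAP1LC3A was 0.40 to 0.46 and that of SLC2A3 1.68 to 1.74 over 13 alternatives, and no result listed here reversed its called direction. GABARAP ranged over -0.51 to 0.32 in the 12 alternatives that gave a value, and MAP1LC3B2 over 0.51 to 0.88 in 10, both limited by few reads. Of all tested genes, 194 were higher and 224 lower. With a minimum of 50 in at least 3 libraries these were 322 and 417, with fewer genes tested. DESeq2 gave 345 and 459, edgeR 285 and 328 with TMM factors and 297 and 312 with RLE factors, and a pseudocount of 0.1 gave 140 and 144, and the cause was not tested. When 1 library was omitted there were 100 to 222 higher and 88 to 244 lower genes, both lowest without SLC2A3 overexpression replicate 3. Of the other autophagy genes, 2 were higher and 2 lower. The minimum of 50 gave 4 and 4, edgeR 4 higher with either factor, and DESeq2 5 and 6. Leaving out 1 library gave 2 to 3 higher and 0 to 3 lower, with 0 lower without SLC2A3 overexpression replicate 3 or empty vector replicate 3. The MAP1LC3A share of the ATG8 sum was 81.7% over 6 libraries and 78.1% with the longest transcript as length. Same-numbered libraries did not deviate together (correlations -0.109, 0.011 and -0.001), and a fit with the replicate block gave 167 higher and 196 lower genes, 2 and 2 among the other autophagy genes, and log2 differences of 0.43 for MAP1LC3A and 1.70 for SLC2A3.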
